A study of Homo sapiens with 12 samples.

Results

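The bands 1q21 to 1q23 of human chromosome 1, around the gene CKS1B, were examined as 1 stretch of the genome in 3 lung adenocarcinoma cell lines. The members were chosen by position: every non-control array probe whose deposited hg19 coordinate starts between 145 and 160 Mb on chromosome 1. CKS1B itself, MCL1, MUC1, IL6R, FDPS and the S100, HIST2H, ITG, SNOR, SCARNA and XLOC_ genes were left out by name, which removed 114 probes of the window. This gave 501 probes of 50599 on the array, which stand for 373 gene names. Of these, 276 genes had a probe that passed the filter (signal clearly over background on 3 arrays or more) and were tested among 24857 genes, and 97 were not. Of the 97, 96 had no such probe and 1, KPLCE, had a probe with a missing value. The 96 include CD1A to CD1E, FCRL2 to FCRL5, AIM2, MNDA, CRP, 7 LCE genes and most of the OR genes.

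RNA came from A549, PC14 and PC14CDDP cells. A549 and PC14 are established lines from lung adenocarcinoma, and PC14CDDP is a cisplatin-resistant line derived from PC14. Each line received 4 transfections at 25 nM: a precursor of miR-197 (premiR-197 in the labels, written pre-miR-197 here), the AllStar-NC control for it, a locked nucleic acid inhibitor of the miRNA (LNA-miR-197) and the control for the inhibitor (LNA-miR-NC). Each of the 12 cultures was read on 1 one-colour Agilent array. Values are given in the order AllStar-NC, pre-miR-197, LNA-miR-NC and LNA-miR-197, as the log2 of the processed signal scaled to the array's own 75th percentile. A value of 0 is thus the brightness of the 75th percentile, and differences are between arrays for the same probe.

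Genes on 1q21 to 1q23 have little in common in function. The stretch holds the epidermal differentiation complex, a cluster of genes for the outer layer of the skin, beside housekeeping genes of the proteasome, the ribosome and splicing, ephrin ligands and several families of receptors. It is known for being present in extra copies in many tumours, among them lung adenocarcinoma and myeloma. CKS1B, the small partner of cyclin-dependent kinases that helps the SCF ubiquitin ligase to mark the cell cycle inhibitor p27 for degradation, lies near its centre. The arrays measured RNA, and DNA was not measured here.

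The region was taken up after levels in these same arrays were known, and its rule does not name the comparison that led to it. Counts and medians over its genes are therefore a description, and no test of the region as a whole is given. A gene is called higher or lower where limma, fitted to all 12 arrays with line and transfection as terms, gave an adjusted p (Benjamini-Hochberg over the 24857 genes) under 0.05. The 4 arrays of a line are cultures of 1 line under different transfections, so these p-values measure the spread between such cultures only. All A549 arrays lay on slide 1 and all PC14 and PC14CDDP arrays on slide 2, in separate rows. A549 against PC14 and the slide, PC14CDDP against PC14 and the slide row, and the transfection and the slide column therefore cannot be told apart. Per array, 55.8% to 63.1% of the probes had signal well above background, and no spot was saturated (0 on each array). KRT8, KRT18 and KRT19, keratins of simple epithelia, were well above background on 4 of 4 arrays of each line. EPCAM was so on 4 arrays of A549, 3 of PC14 and 0 of PC14CDDP, and CDH1, the epithelial cadherin, on 4, 2 and 0. Among markers of other cell types, the blood genes PTPRC and CD14, the fibroblast gene COL1A1 and the endothelial genes VWF and CDH5 were well above background on all 12 arrays. CD3E was so on 3, 2 and 2 arrays and PECAM1 on 1, 4 and 0 arrays of A549, PC14 and PC14CDDP, while PDGFRB and DCN were below it throughout (0 arrays). Their part in the differences of the region was not tested.

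Sequences upstream of 6 genes on which the results turn are shown first, in 5 stretches, from RefSeq on GRCh38.p14. SHC1, an adaptor of receptor tyrosine kinases, and CKS1B start back to back on opposite strands, 305 bases apart (transcript starts at 154974376 and 154974681). The part between them that lies within 250 bases upstream of both starts is shown, chr1:154974431-154974626 on the plus strand. It has 196 bases and 14 CG dinucleotides, which are in capitals.

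SHC1 and CKS1B shared stretch: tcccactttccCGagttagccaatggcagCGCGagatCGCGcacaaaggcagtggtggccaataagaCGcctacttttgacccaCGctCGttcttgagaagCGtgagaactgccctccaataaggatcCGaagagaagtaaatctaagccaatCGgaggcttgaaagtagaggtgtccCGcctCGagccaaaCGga

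TXNIP, which codes for the inhibitor of thioredoxin, and PEAR1, a platelet and endothelial receptor, had the largest positive differences between PC14CDDP and PC14. The 250 bases before each start lie at chr1:145996580-145996829 on the minus strand (TXNIP, 18 CG) and at chr1:156893468-156893717 on the plus strand (PEAR1, 17 CG). CG dinucleotides are again in capitals.

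TXNIP: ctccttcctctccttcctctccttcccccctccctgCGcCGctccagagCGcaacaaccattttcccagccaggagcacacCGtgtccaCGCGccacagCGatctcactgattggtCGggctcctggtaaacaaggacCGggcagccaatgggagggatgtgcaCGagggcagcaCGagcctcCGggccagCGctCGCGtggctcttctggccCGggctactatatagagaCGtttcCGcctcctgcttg
PEAR1: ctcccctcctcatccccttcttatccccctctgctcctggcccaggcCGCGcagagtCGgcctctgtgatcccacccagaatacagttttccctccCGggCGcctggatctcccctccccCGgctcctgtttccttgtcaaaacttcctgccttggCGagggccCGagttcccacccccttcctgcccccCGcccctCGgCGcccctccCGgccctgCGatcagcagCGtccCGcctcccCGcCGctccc

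ECM1, an extracellular matrix protein gene, is shown as a promoter poor in CG (1 in the 250 bases), at chr1:150507859-150508108 on the plus strand, with the letters TATAAA in capitals. CIART, a repressor of the circadian clock, is shown for its 3 copies of CACGTG, the E-box letters, in capitals, at chr1:150282304-150282553 on the plus strand.

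ECM1: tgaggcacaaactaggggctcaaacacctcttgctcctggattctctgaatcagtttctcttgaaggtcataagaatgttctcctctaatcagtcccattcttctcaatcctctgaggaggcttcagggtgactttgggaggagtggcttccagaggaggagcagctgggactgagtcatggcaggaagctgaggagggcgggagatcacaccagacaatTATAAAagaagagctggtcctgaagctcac
CIART: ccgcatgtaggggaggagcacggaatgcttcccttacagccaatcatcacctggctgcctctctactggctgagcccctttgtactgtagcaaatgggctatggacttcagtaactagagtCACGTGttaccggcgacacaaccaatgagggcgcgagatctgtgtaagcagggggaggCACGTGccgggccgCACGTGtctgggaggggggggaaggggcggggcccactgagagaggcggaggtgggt

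Over both strands of 300-base promoters, CACGTG was present in 2548 of 35116 promoters (7.26%) and in 23 of the 198 members with a promoter in the table (11.6%). TATAAA was present in 4049 of all promoters (11.5%) and in 23 members (11.6%). The 35116 promoters belong to 27305 genes and were counted singly, whereas a member counted when any of its promoters matched. The shares are therefore of unlike units, and those of the members can be higher for this reason. A match of letters is a description and not a binding site.

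Genes of the region were more often higher than lower in PC14CDDP than in PC14. Of the 276 genes, 130 were called higher (47.1%), where 24.7% of all genes tested were, and 21 were called lower (7.61%), where 23.6% of all genes were. The 4 PC14CDDP arrays lay entirely above the 4 PC14 arrays for 103 genes (37.3% against 18.4% of all genes) and entirely below them for 19 (6.88% against 17.6%). The median gene of the region was 0.32 higher on the log2 scale, or 1.25-fold, with quartiles of -0.04 and 0.69. The median over the rest of the genome was 0.03, and 71.4% of the region's genes lay above 0 against 52.3% of the rest. In bulk RNA, fewer cells that express a gene and less RNA per cell cannot be told apart.

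The difference had a similar size in each pair of arrays that shared a transfection. The median of the region minus that of the rest of the genome was 0.29 in the pair with AllStar-NC, 0.30 with pre-miR-197, 0.32 with LNA-miR-NC and 0.37 with LNA-miR-197 (0.32 ± 0.04, SD, n = 4 pairs). Taken array by array, the same quantity lay between 0.21 and 0.30 on the PC14 arrays, between 0.38 and 0.45 on the A549 arrays and between 0.63 and 0.79 on the PC14CDDP arrays, so that the 3 ranges did not overlap.

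Most of the differences were small. Of the 130 genes called higher, 102 were under 2-fold and 28 reached 2-fold, with a median of 0.69 (1.61-fold). Among the 21 called lower, 11 reached 2-fold. Single genes ranged from -4.75 (LINC00624) to 8.34 (TXNIP). Another 94 probes for 70 of the genes had the same sign as the chosen probe in 83 cases, and 53 of the 55 such probes of genes called higher lay above 0.

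The differences were not even along the stretch. In bins of 1 Mb, the median was 0.12, -0.06 and 0.18 from 145 to 148 Mb. It was 0.68 in the next bin, which holds 6 genes only, and 0.06 from 149 to 150 Mb. The 7 bins from 150 to 157 Mb, with 20 to 39 genes each, had medians of 0.46, 0.55, 0.33, 0.35, 0.48, 0.46 and 0.28. The last 3 bins fell back to 0.19, -0.05 and 0.03, with 3, 6 and 16 genes. CKS1B, at chr1:154951527-154951586 by its hg19 probe, thus lies inside the block of higher medians, which runs well beyond it on both sides.

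**Figure D1:**
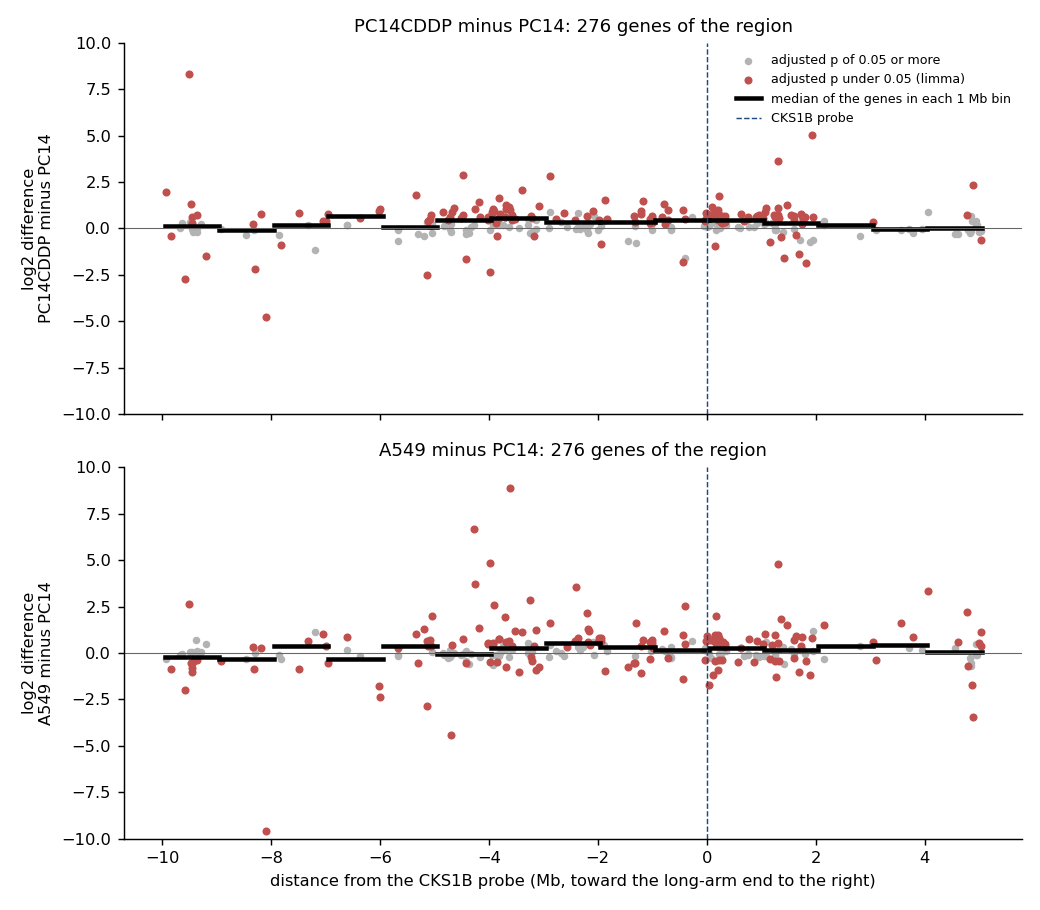
Log2 difference of each of the 276 genes (points) against the distance of its probe from the CKS1B probe in Mb, with medians of 1 Mb bins as lines, for PC14CDDP against PC14 (top) and A549 against PC14 (bottom). Apart from a bin of 6 genes at 0.68, the medians of PC14CDDP peak at 0.55 a few Mb before CKS1B, and the first and last bins are at 0.12 and 0.03.

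Genes at the ends of the window had differences of either sign. The first 2 inside, LOC100505971 and SEC22B (vesicle traffic), had differences of 1.98 and -0.43, and the nearest 2 outside, probes without a gene name, -0.20 and 0.76. At the far end BC039426 and PIGM (anchor synthesis) had -0.60 and -0.16, and IGSF8 and ATP1A4 outside the window -0.71 and -1.54.

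The rest of the long arm of chromosome 1 lay between the region and the genome. Its 763 genes had a median of 0.21 and 65.7% of them were above 0, whereas the 1324 genes of the short arm had a median of -0.08. With the left-out genes included, the bins of 5 Mb had medians of 0.15 from 145 to 150 Mb (71 genes), 0.43 from 150 to 155 Mb (143 genes, 70 called higher and 11 lower) and 0.29 from 155 to 160 Mb (112 genes, 48 and 11). Beyond the window they stayed at 0.26 from 160 to 165 Mb and 0.40 from 165 to 170 Mb. The lowest bin on the short arm, from 110 to 115 Mb, had a median of -0.89 over 79 genes, of which 0 were called higher and 56 lower. Over all genes tested, 24.7% were called higher and 23.6% lower. Among 187 other windows of 15 Mb with at least 50 genes across the genome, 14 had a higher median than the region and 173 a lower one (range -1.16 to 0.75), so the region is high but not alone at its level.

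**Figure D2:**
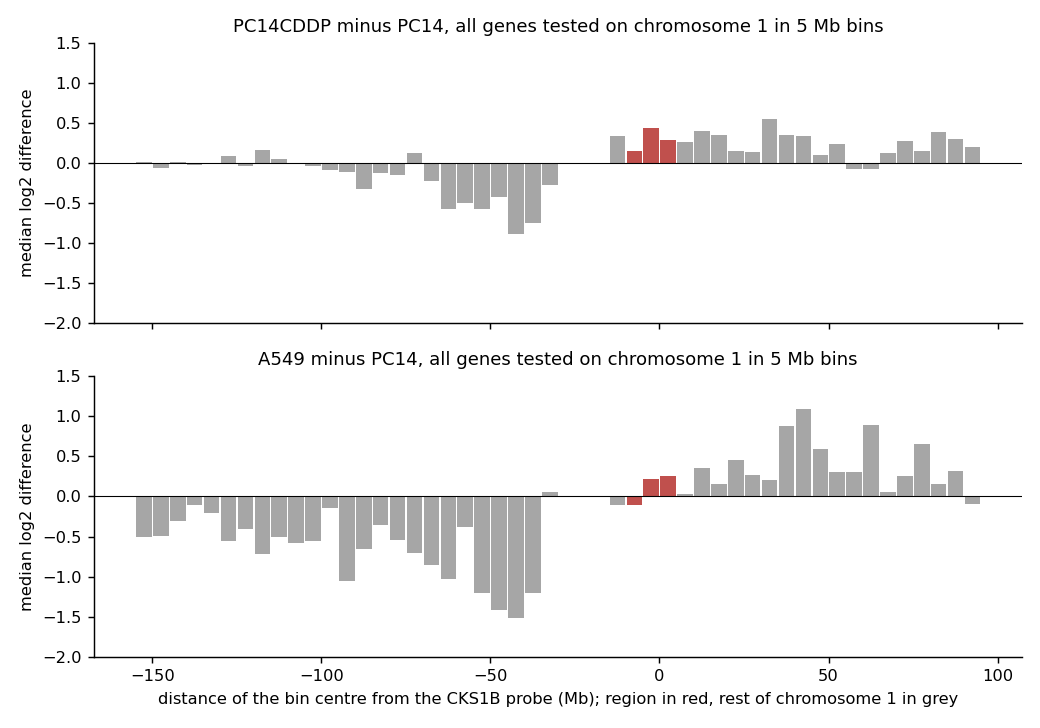
Median log2 difference of all genes tested on chromosome 1 in 5 Mb bins, against the distance of the bin from CKS1B, with the bins of the region in red, for PC14CDDP against PC14 (top) and A549 against PC14 (bottom). The region's bins are at 0.15, 0.43 and 0.29 at the top, and the bin from 110 to 115 Mb is at -0.89 at the top and -1.51 at the bottom.

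CKS1B had signals of 6.03, 5.82, 6.10 and 6.18 on the PC14 arrays and 7.02, 6.63, 6.87 and 7.05 on the PC14CDDP arrays. The groups did not overlap, and the difference was 0.86 (SE 0.08, limma adjusted p = 7.32e-05). Its neighbours were described next, namely the genes whose probe starts within 0.3 Mb of the CKS1B probe. Of 31 such genes 30 were tested, with a median of 0.52, and 28 lay above 0, where 52.3% of the rest of the genome did. Of the 30, 19 were called higher (63.3%, against 24.7% of all genes) and 1 lower (3.33%, against 23.6%). SHC1, across the shared stretch, had 3.03, 2.76, 3.10 and 2.93 in PC14 and 3.91, 3.58, 3.93 and 3.69 in PC14CDDP. All 4 PC14CDDP arrays were above PC14, by 0.82 (SE 0.08, adjusted p = 7.52e-05), or 1.77-fold. FLAD1, which makes the cofactor FAD, lies just beside CKS1B and had 1.17, 1.25, 1.36 and 1.40 against 2.11, 1.88, 2.09 and 1.84, a difference of 0.68 (adjusted p = 0.000878) without overlap. The ephrin-A ligands, membrane-bound partners of Eph receptors, did not move as a group. EFNA4 was higher by 1.17 (adjusted p = 9.63e-05) and EFNA3 by 0.79 (adjusted p = 0.000536). EFNA1 was the 1 neighbour called lower, with -1.55, -1.62, -1.78 and -1.78 in PC14 and -2.62, -3.02, -2.77 and -2.20 in PC14CDDP, a difference of -0.97 (SE 0.21, adjusted p = 0.00528). Among the enzymes of glycosylation nearby, KRTCAP2, a subunit of oligosaccharyltransferase, and DPM3, of dolichol-phosphate mannose synthase, were higher by 0.57 and 0.59 (adjusted p = 0.000368 and 0.00162), the latter with overlapping arrays. PYGO2, a nuclear factor of Wnt signalling, was higher by 0.41.

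A list of 27 genes that have been discussed as drivers of 1q21 gain in cancer held 22 called higher and 1 called lower in PC14CDDP. The share higher was 81.5%, beside 24.7% of all genes and 47.1% of the region, and the median was 0.57. The list was written with earlier results of these arrays known. Among its members, PSMD4, the ubiquitin receptor of the proteasome, had 5.33 to 5.46 on the PC14 arrays and 5.86 to 6.35 on the PC14CDDP arrays. The groups did not overlap and the difference was 0.64 (SE 0.09, adjusted p = 0.000489), or 1.56-fold. UBE2Q1, a ubiquitin-conjugating enzyme, was higher by 0.99 (adjusted p = 1.94e-05), and SETDB1, a histone H3 lysine 9 methyltransferase, by 0.63 (adjusted p = 0.00267). ADAR, the RNA editing enzyme, was higher by 0.51 and ARNT, the partner of hypoxia-inducible factors, by 0.60. PDZK1, a scaffold of membrane transporters, was the member called lower, by -1.49 (adjusted p = 0.000378). ILF2, an RNA-binding protein (0.13, adjusted p = 0.21), and BCL9, a cofactor of Wnt signalling (-0.33, adjusted p = 0.0888), did not pass. RAB25, a small GTPase of recycling endosomes, was called with 1.11 (adjusted p = 0.0311), but its arrays overlapped and it was not well above background on any PC14 array.

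The next list held housekeeping genes, mostly of the proteasome, the chaperonin, ribosomes, translation and splicing. It also held DPM3 and KRTCAP2, LAMTOR2 of nutrient sensing at the lysosome, SNAPIN of vesicle fusion, PRUNE1, and POLR3C and POLR3GL of RNA polymerase III. This list too was written with earlier results of these arrays known. Of 25 tested, 22 were called higher (88%) and 0 lower (0%). The shares were 24.7% and 23.6% over all genes, and 47.1% and 7.61% over the region, which includes the list. Of these 25, 24 lay above 0, with a median of 0.59. CCT3, a chaperonin subunit, had 6.64, 6.81, 6.81 and 6.74 in PC14 and 7.22, 7.25, 7.33 and 7.38 in PC14CDDP, a difference of 0.55 (adjusted p = 0.000885). PRPF3, a splicing factor of the U4/U6 particle, was higher by 1.08 (0.43, 0.78, 0.77 and 1.11 against 1.38, 2.04, 1.78 and 2.20, adjusted p = 0.000129), and all 4 PC14CDDP arrays were above PC14. RPS27, a ribosomal protein, showed a smaller difference of 0.32 (adjusted p = 0.00457), also without overlap. SMG5, of nonsense-mediated decay, was the member below 0 (-0.08, adjusted p = 0.679). The list shared PSMD4, PSMB4, CCT3 and ILF2 with the preceding list, so the counts of the lists are not separate.

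The genes with the largest positive differences were not on the housekeeping list. TXNIP and ECM1 among them are on the 1q21 gain list and are already counted there. TXNIP (hg19 probe chr1:145442447-145442506) was not well above background on any PC14 array, with -7.98, -8.03, -8.14 and -8.42. On the PC14CDDP arrays it had -0.03, 1.93, -0.50 and -0.61. The fitted difference was 8.34 (SE 0.70, adjusted p = 3.92e-05). As the PC14 signal is only a bound, the level was at least 87.5-fold higher. PEAR1 (chr1:156885677-156885736) had -4.97, -3.87, -4.64 and -3.95 in PC14 and 0.65, 1.33, 0.34 and 0.33 in PC14CDDP. It was measured on all of these arrays, which did not overlap, and was 32.5-fold higher (5.02, SE 0.23, adjusted p = 1.66e-06). GLMP, a glycoprotein of the lysosomal membrane (chr1:156262684-156262743), had -5.04, -4.69, -4.36 and -4.49 against -0.79, -1.06, -0.78 and -1.49, a 12.2-fold difference (3.61, SE 0.19, adjusted p = 3.47e-06). The other GLMP probe had a difference of 1.00 only, and the mean of both probes 2.31. ECM1 (chr1:150485797-150485856) was 7.26-fold higher (2.86, SE 0.22, adjusted p = 2.85e-05), with -4.47, -5.05, -3.41 and -4.08 in PC14 and -1.07, -1.89, -0.77 and -1.84 in PC14CDDP. TCHH, trichohyalin of the hair follicle (chr1:152078866-152078925), went from -6.03, -5.59, -6.06 and -6.43 to -3.38, -2.77, -3.10 and -3.62. The fitted difference was 2.81 (SE 0.12, adjusted p = 1.13e-06), with 1 of the 4 PC14 arrays well above background, so no exact fold is given.

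Some genes of the stretch ran the other way, with the lowest difference at -4.75 where the highest was 8.34. LINC00624, a long non-coding RNA (chr1:146854022-146854081), had 2.63, 2.63, 2.72 and 2.73 in PC14 and -1.97, -1.90, -2.14 and -2.25 in PC14CDDP, and was 26.8-fold lower (-4.75, SE 0.16, adjusted p = 3.14e-07). MINDY1, a deubiquitinase, had 1.02, 0.14, 0.70 and 0.57 against -1.53, -1.99, -1.54 and -1.82, a 5.02-fold lower level (-2.33, adjusted p = 2.49e-06). SH2D2A, an adaptor first known from T cells, was 3.62-fold lower (-1.86, SE 0.12, adjusted p = 8.43e-06), with 0.20, 0.22, 0.19 and 0.05 against -1.36, -1.58, -1.97 and -1.86. FMO5, a flavin monooxygenase, was well above background on PC14 arrays (-5.48, -5.03, -4.74 and -5.51) and on 0 of 4 PC14CDDP arrays, which bounds it at 1.58-fold lower at the least (adjusted p = 0.00319). TDRD10, a Tudor domain gene, was lower by -1.79 (adjusted p = 0.00013), with 1 of 4 PC14CDDP arrays well above background. NES, nestin of the intermediate filaments, was lower by -1.40 (adjusted p = 0.000196), and LMNA, the nuclear lamin A/C, by -0.74 (adjusted p = 0.00085).

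**Figure D3:**
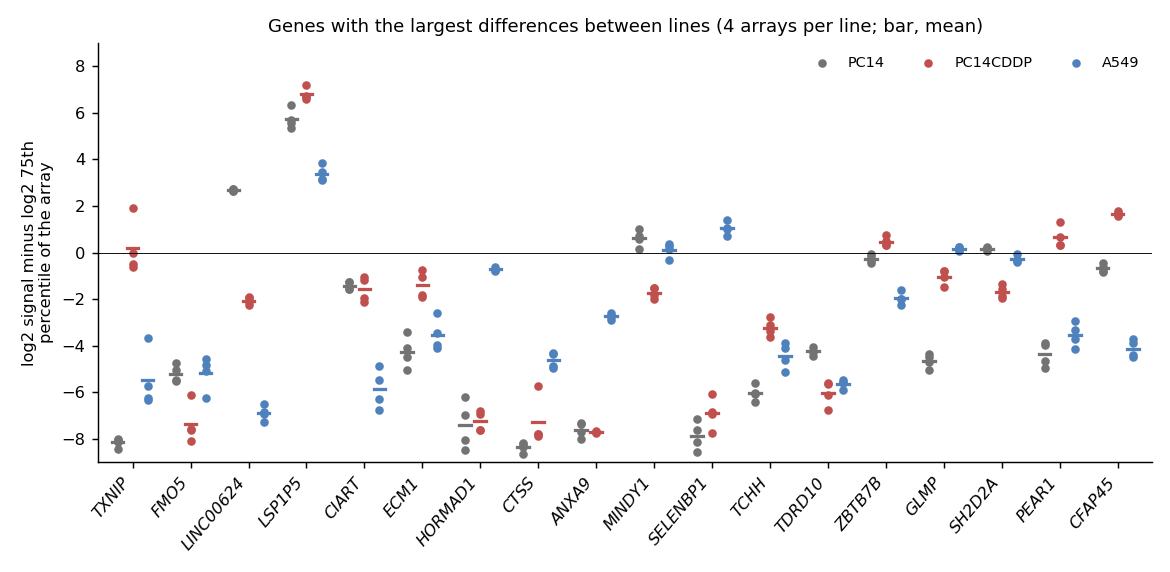
Log2 signal, scaled to the 75th percentile per array, for the genes with the largest differences between lines, with 1 point per array (4 arrays per line) and bars at the means. TXNIP and PEAR1 separate PC14CDDP from both other lines, SELENBP1 and HORMAD1 separate A549, and LINC00624 lies at 3 levels.

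The tissue-restricted lists had few measured members. Of the epidermal differentiation complex, 23 of 45 genes with a probe were tested, and 7 were called higher and 1 lower in PC14CDDP, with a median of 0.33. The share of 30.4% higher is near the 24.7% of all genes. That of 4.35% lower is below the 23.6% of all genes, and 19 of the 23 lay above 0. The median of the list is close to the 0.32 of the whole region. SPRR2F, a small proline-rich protein of the cornified envelope, was higher by 1.52 (-1.54, -1.67, -1.54 and -1.66 against -0.25, 0.16, -0.30 and 0.08, adjusted p = 3.13e-05), without overlap. SPRR1B was lower by -0.86 (adjusted p = 0.00556) and was well above background on 2 PC14 arrays and 0 PC14CDDP arrays. FLG, the filaggrin gene, did not pass (0.33, adjusted p = 0.202). Of 18 genes of blood cells 5 were tested, with 1 higher (CTSS) and 1 lower (SH2D2A). CTSS, the cathepsin S gene, was well above background on 0 PC14 arrays and 1 PC14CDDP array (1.05, adjusted p = 0.0394). Of 17 olfactory receptor genes 4 were tested, with differences from -0.29 to -0.04, and the lowest adjusted p was 0.442. Among 6 lysosome and protease genes 3 were higher (50%) and 1 lower (16.7%), where 24.7% and 23.6% of all genes were. CTSK, cathepsin K, was higher by 1.41 in the fit (adjusted p = 8.62e-05), although its arrays overlapped. In both lines its arrays with an LNA oligonucleotide were the higher ones. ADAMTSL4, a matrix protein, was lower by -1.64 (adjusted p = 7.2e-05). Of 13 channel, receptor and neural genes 2 were higher (15.4%) and 3 lower (23.1%), near the shares over all genes. Of 18 membrane traffic and cytoskeleton genes 9 were higher (50%) and 1 lower (5.56%). These shares are near the 47.1% and 7.61% of the region itself, and are no result about traffic genes. Of 4 genes of the HIN200 family of DNA sensors 2 were tested, with 0 called in PC14CDDP and 1, IFI16, in A549. VPS45, of endosomal fusion, was higher by 0.90 (0.16, -0.11, 0.30 and -0.02 against 1.11, 0.86, 1.28 and 0.67, adjusted p = 0.000181). TMOD4, the tropomodulin of skeletal muscle, was higher by 1.65 (adjusted p = 0.00198).

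The genes called in PC14CDDP had more CG upstream than those not called. Counting CG in the 300-base RefSeq promoter, the median was 17 over 198 members and 14 over 27305 genes of the table. It was 19 over the 97 members called higher, 22 over the 15 called lower and 8 over the 86 not called. The housekeeping list had a median of 22, and the epidermal list 2 (range 0 to 5). Split at the median of all genes, the 116 members with 14 or more CG had 71 called higher (61.2%) and 9 lower (7.76%), with a median difference of 0.49. The 82 members below it had 26 higher (31.7%) and 6 lower (7.32%), with a median of 0.24. The same split over all genes tested gave 32.1% higher and 27.2% lower above it, and 22.1% and 21.7% below it, with medians of 0.06 and 0.05. How much of this follows from the signal level of the genes was not tested.

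A549 was compared with PC14 in the same fit, so both line comparisons share the 4 PC14 arrays and their values are only set side by side. In A549, 107 genes of the region were called higher (38.8%, against 35.9% of all genes) and 55 lower (19.9%, against 32.3%). The arrays did not overlap for 81 higher genes (29.3% against 30.7%) and 44 lower genes (15.9% against 27.8%). The median was 0.16 (quartiles -0.26 and 0.64) against 0.08 over the rest of the genome, and 59.1% of the genes lay above 0 against 53.2%. The 94 other probes, for 70 of the genes, had a median of -0.05 in A549. Their sign was that of the chosen probe in 73 cases, and 20 of the 24 such probes of genes called higher lay above 0. By pair of arrays the region exceeded the rest by 0.16, 0.08, 0.13 and 0.11 (0.12 ± 0.03, SD, n = 4 pairs). Among the 187 other windows of 15 Mb, 82 had a higher median and 105 a lower one. The rest of the long arm was at 0.27 and the short arm at -0.52, so the region stood above chromosome 1 as a whole but not above its own arm. Along the stretch the 1 Mb medians ran from -0.34 to 0.55, with the highest value from 152 to 153 Mb, where the epidermal genes begin.

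The lists differed from PC14 in A549 in other proportions. The 30 neighbours of CKS1B had 13 higher (43.3%) and 7 lower genes (23.3%), where 35.9% and 32.3% of all genes were, with a median of 0.32, and CKS1B itself, at 6.49, 6.30, 6.39 and 6.40, was higher by 0.36 (SE 0.08, adjusted p = 0.00433). The housekeeping list had 8 higher (32%) and 6 lower genes (24%) with a median of 0.00, and the 1q21 gain list 10 higher (37%) and 4 lower (14.8%) with a median of 0.27. Both shares higher are near the 35.9% of all genes. The epidermal list had 15 of 23 higher (65.2%) and 1 lower, with a median of 0.61. Its promoters are poor in CG. Of all genes tested with fewer than 14 CG in the promoter, 44% were higher and 25.4% lower in A549, with a median of 0.31. LCE1E, a late cornified envelope gene, was higher in A549 by 2.15 (-3.18, -2.83, -3.12 and -2.70 in PC14 against -0.70, -0.38, -1.12 and -1.01, adjusted p = 4.94e-06). LCE3D was higher by 3.58 (adjusted p = 0.000263), with 1 of 4 PC14 arrays well above background. Of the channel and neural genes 7 were higher (53.8%) and 3 lower (23.1%), and of the lysosomal genes 4 (66.7%) and 1 (16.7%). The traffic genes had 5 (27.8%) and 4 (22.2%), and the blood genes 1 and 1 (20% each). Of the olfactory receptors 2 (OR6Y1 and OR6N1, 50%) were higher and 0 lower. The shares over all genes were 35.9% and 32.3%, and these lists are small.

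The largest differences of A549 came from genes that PC14 barely showed. SELENBP1 and HORMAD1 were well above background in A549 only and passed the filter through those arrays. Their direction was thus largely set by the filter, and their adjusted p is no separate support. SELENBP1, a selenium-binding methanethiol oxidase (chr1:151336847-151336906), had 1.07, 0.70, 1.41 and 1.01 in A549 and was at or below background throughout PC14 and PC14CDDP (0 of 8 arrays well above it). It was at least 158-fold higher than in PC14 (8.90, SE 0.26, adjusted p = 3.98e-08). HORMAD1, a meiotic chromosome protein of the cancer-testis group (chr1:150679219-150679278), had -0.74, -0.75, -0.60 and -0.78 and was at least 46.3-fold higher (6.69, SE 0.31, adjusted p = 5.32e-07). ANXA9, an annexin, was at least 11.4-fold higher (4.85, adjusted p = 5.6e-08), with -2.70, -2.91, -2.59 and -2.77, and CTSS at least 3.1-fold higher (3.71, adjusted p = 3.12e-05). GLMP was measured in both lines and was 28.0-fold higher, with 0.11, 0.22, 0.08 and 0.23 (4.81, SE 0.19, adjusted p = 2.1e-07) by this probe. Its other probe had a difference of 1.03, and the mean of both 2.92. IFI16, a sensor of DNA in the nucleus, was well above background on 4 A549 arrays and on 0 of PC14, at least 2.88-fold higher (adjusted p = 6.17e-05).

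In the other direction LINC00624 was not well above background in A549 (0 of 4 arrays), which makes it at least 445-fold lower than in PC14 (-9.57, adjusted p = 2.35e-09). CIART had -1.56, -1.26, -1.58 and -1.27 in PC14 and -6.28, -6.77, -5.45 and -4.86 in A549. The fitted difference was -4.43 (SE 0.35, adjusted p = 9.92e-06), but only 2 of the 4 A549 arrays measured it above background, so no exact fold is given. In PC14CDDP it had -2.14, -1.07, -1.96 and -1.16 (-0.17, adjusted p = 0.728). CFAP45, of cilia and flagella, had -0.78, -0.85, -0.63 and -0.44 in PC14, 1.59, 1.55, 1.68 and 1.77 in PC14CDDP and -4.48, -4.39, -3.87 and -3.73 in A549. Its 3 lines did not overlap: it was 5.01-fold higher in PC14CDDP (adjusted p = 2.23e-06) and 10.9-fold lower in A549 (adjusted p = 6.75e-08) than in PC14. The pseudogene LSP1P5 (1.06 and -2.35) and ZBTB7B, a transcription factor of T cell fate and skin (0.72 and -1.70), had the same order of the lines. LSP1P5 shares sequence with LSP1, and the genes from 145 to 149 Mb include near-identical copies such as the NBPF and NOTCH2NL families, so their probes may read more than 1 gene.

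No gene of the region passed the test after the miRNA was supplied. After pre-miR-197, 0 of the 276 genes were called higher and 0 lower by limma, where 0.0845% and 0.133% of all genes were, and at an unadjusted p under 0.05 there were 21 higher and 31 lower. The median was 0.02 against 0.03 over the rest of the genome. By line it exceeded the rest by 0.01 in A549, 0.00 in PC14 and -0.06 in PC14CDDP. The 3 largest mean ratios among genes of 1 sign in all lines were those of OR10J5 (1.02, 0.90 and 0.87 in A549, PC14 and PC14CDDP; 0.93 ± 0.08, SD, n = 3 lines; limma adjusted p = 0.223), SMCP (0.88 ± 0.89, adjusted p = 0.305) and PIP5K1A (0.80 ± 0.48, adjusted p = 0.113). The largest negative ones were those of PAQR6 (-0.97, -0.80 and -1.57; -1.11 ± 0.40, adjusted p = 0.0822), MLLT11 (-1.06 ± 0.75, adjusted p = 0.126) and PIGM (-0.94 ± 0.46, adjusted p = 0.0826). PIP5K1A makes the lipid PIP2 and PAQR6 is a membrane progestin receptor.

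The mature miRNA, encoded on the short arm of the same chromosome at chr1:109598940-109598961 (GRCh38.p14, plus strand), is shown with its seed, bases 2 to 8, in capitals.

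hsa-miR-197-3p: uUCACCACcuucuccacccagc

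Its match, GTGGTGA, was searched in the 60-base array probes in the sense direction. It was present in 258 of 50599 probes (0.51%) and in 1 of the 276 chosen probes of the region (0.362%), that of the transcript ENST00000447623, shown with the match in capitals.

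ENST00000447623: gcttgtgtccGTGGTGAgaagggtgat

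That probe had ratios of 0.14, -0.07 and -0.09 after pre-miR-197, with an adjusted p of 0.996. The probes cover a small share of each transcript, so the match outside them was not examined.

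More genes were called after the inhibitor, in both directions. After LNA-miR-197, 7 genes of the region were called higher than after LNA-miR-NC (2.54%, against 3.75% of all genes) and 8 lower (2.9% against 3.9%), with a median of 0.00 against -0.02 over the rest. By line the region exceeded the rest by 0.02, 0.02 and 0.03. Of the genes called higher, C1orf54 had ratios of 0.69, 0.51 and 1.19 in A549, PC14 and PC14CDDP (0.80 ± 0.35, n = 3 lines, adjusted p = 0.0285). NOTCH2NLA, a NOTCH2-like gene with near-identical copies, had 0.64, 0.56 and 0.77 (adjusted p = 0.022) by the brightest of 3 probes. The other two had means of -0.20 and -0.12, and with the mean of the probes the call was lost (0.11, adjusted p = 0.479). MEX3A, an RNA-binding protein, had 0.59, 0.82 and 1.17 (adjusted p = 0.0461), ETV3, an ETS repressor, 0.60, 0.58 and 1.33 (adjusted p = 0.0339), and PLEKHO1, of actin control, 0.54, 0.31 and 0.90 (adjusted p = 0.0289). PRKAB2, a subunit of AMP-activated kinase, and LSP1P5 were the remaining genes called higher. The other probe of LSP1P5 had a mean of 0.01, and with the mean of the probes its call was lost (0.26, limma adjusted p = 0.192).

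Among the genes called lower, the value of the largest turned on the control used. LOC100129268 (hg19 probe chr1:155175206-155175265) had -2.36, -2.88, -0.21 and -2.35 in A549, and its LNA-miR-NC array was likewise the highest in PC14 and PC14CDDP. Its ratio to LNA-miR-NC was -1.93 ± 0.28 (adjusted p = 0.00785), its ratio to AllStar-NC was 0.20 (adjusted p = 0.39), and LNA-miR-NC exceeded AllStar-NC by 2.13 (adjusted p = 0.00312). GATAD2B, a subunit of the NuRD complex, had -0.79 ± 0.17 (adjusted p = 0.0192) against LNA-miR-NC and -0.29 (adjusted p = 0.123) against AllStar-NC. SLC27A3, an acyl-CoA synthetase, had -1.07 ± 0.44 (adjusted p = 0.0493) and -0.49 (adjusted p = 0.24). GNRHR2, a receptor pseudogene, was lower against both controls, at -0.94 ± 0.52 (adjusted p = 0.0407) and -0.81 (adjusted p = 0.0421). TCHH had -0.65 ± 0.36 (adjusted p = 0.0335) and -0.38 (adjusted p = 0.0931). Its other probe had a mean of -0.18 against LNA-miR-NC, and with the mean of the probes the call was lost (-0.42, limma adjusted p = 0.495). PBXIP1, MSTO1 and UBE2Q1 were the remaining genes called lower. Of the 5 named genes called higher, 4 also passed against AllStar-NC, with 1.09 for C1orf54, 0.95 for NOTCH2NLA, 0.82 for MEX3A and 0.41 for PLEKHO1, while ETV3 had 0.59 (adjusted p = 0.0589). With any 1 line left out, 0 genes of the region were called in either direction, and likewise with only the arrays of the comparison in the fit.

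**Figure D4:**
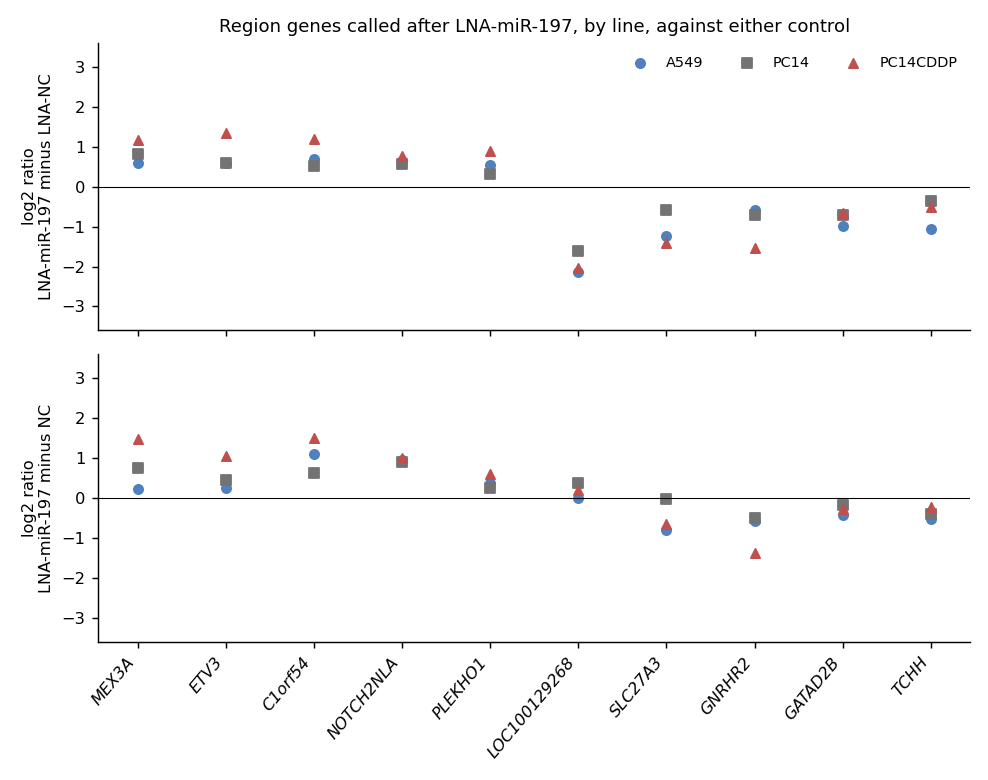
Log2 ratio of LNA-miR-197 to LNA-miR-NC (top) and to AllStar-NC (bottom) for the genes of the region called after the inhibitor, with 1 point per cell line. LOC100129268 lies between -2.13 and -1.61 at the top and near 0 at the bottom.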

How the data were processed

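RNA of 3 lines under 4 transfections was read on 12 arrays. The authors deposited, per spot, intensity as the mean of the pixels, the median local background and the processed signal of Agilent Feature Extraction 10.7.3.1, from which the software had taken the background and a spatial trend, without scaling between arrays. Coordinates are on hg19. Their series table equals the processed signal on all 62976 spots of each array. The paper's text names no normalization for these arrays. The labels gave the line and transfection of every sample, and 0 columns of other samples were found.

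Control spots, flagged outliers and 106 probes with a missing value were left out. Spots of 1 probe were averaged, and log2 signals were scaled by subtracting the array's log2 75th percentile (614 to 715 signal units). A probe entered when well above background on at least 3 arrays (33714 did), and the brightest one stood for its gene. A gene that passed only through the line where it was bright was tested because of that line. The counts of called genes include such genes. RefSeq names were found for 28174 of 50599 probes (55.7%), and others kept the file's name. Where a group was below background on all its arrays, the other group's mean was set against a floor, and the result is given as "at least". The floor is, per array, the dimmest signal still called well above background, or the probe's own where that is brighter. The number of arrays limits the precision.

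limma 3.58.1 in R 4.3.3 (lmFit and eBayes, line and transfection as terms, all 12 arrays) gave adjusted p-values over 24857 genes. Arrays of the same line deviated together (r from 0.848 to 0.948), as did arrays of the same transfection (r from 0.278 to 0.503), so the line pairs the transfections and the transfection the lines. The members, lists and names were chosen with earlier results of these data known. The genes named are, per line comparison, the 5 called genes with the largest difference in each direction, with a gene symbol and all 4 arrays of 1 line above background; per transfection, the called genes (up to 5 per direction) or else the 3 largest of 1 sign in all lines, above background on at least 9 arrays; the genes within 0.3 Mb of CKS1B; examples of each list; and the 2 members and 2 other genes at each end. CFAP45, LSP1P5 and ZBTB7B also fall under this rule, and SMCP is named by it without a role. Some genes of the lists are not reported here by name. Sequences come from RefSeq (GRCh38.p14) and no coordinate was moved between builds. Alternatives were normexp with an offset of 50, quantile and median scaling, the deposited table, a filter on 0 or on all 12 arrays, probe means per gene or every probe, trend and robust moderation, only the arrays compared, no line or transfection term, the slide as block, the methods' t-test, the other control, left-out genes put back, other bins, other parts of chromosome 1 and each replicate left out. Python 3.11.15 with matplotlib 3.10.9 drew the plots.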

Additional observations from a re-analysis of the deposited data

Results flagged for a closer look

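In 10 of 195 groups of 4 arrays looked at among the named genes, 1 array stood apart by more than the 95% limit of Dixon's test. For like replicates chance gives about 1 in 20. The 4 arrays of a group had different transfections, so that rate does not hold here. An odd array and its transfection cannot be told apart. The value is the gap to the nearest array over the range of the group. DPM3 was low on the pre-miR-197 array of A549 (4.01, nearest 4.28; 0.945) and of PC14CDDP (3.69, nearest 4.34; 0.837). SH2D2A was low on the LNA-miR-197 array of PC14 (0.05, nearest 0.19; 0.862). PAQR6 was high on the AllStar-NC array of PC14 (0.98, nearest 0.25; 0.912). CTSS was high on the LNA-miR-NC array of PC14CDDP (-5.73, nearest -7.77; 0.959), and so was LOC100129268 (0.66, nearest -1.38; 0.856). GNRHR2 was low on the LNA-miR-197 array of PC14CDDP (-4.99, nearest -3.62; 0.896). DCST1-AS1 was high on the AllStar-NC array of PC14CDDP (0.50, nearest -0.21; 0.921). KRTCAP2 (5.50, nearest 5.23; 0.88) and LOC100505971 (-3.16, nearest -3.34; 0.873) were high on the pre-miR-197 array of PC14CDDP.

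OR10J5, an olfactory receptor gene, had a ratio of LNA-miR-197 to LNA-miR-NC of -1.11 in A549 and of 0.77 in PC14CDDP, a gap of 1.88 on the log2 scale. The difference between the lines was not tested.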

How the results depend on the processing

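Higher calls of the region outnumbered lower ones in PC14CDDP against PC14 under every alternative run. The fitted median of the region minus that of all other genes was 0.30 there, and it became 0.16 with normexp, 0.19 without a filter, 0.34 with probes above background on all 12 arrays, 0.35 with the mean of a gene's probes, 0.36 with every probe and 0.11 against the rest of the long arm. With the left-out genes put back 34 were lower. For A549 the same median of 0.08 became 0.04 with normexp or without a filter, 0.12 on all 12 arrays, 0.32 against the rest of chromosome 1 and -0.11 against the rest of the long arm, which turned its sign. With each transfection left out in turn, PC14CDDP had 107 to 117 higher and 17 to 26 lower genes (median 0.29 to 0.33), and A549 86 to 100 and 43 to 58 (0.09 to 0.11). Without the transfection term that pairs the arrays there were 106 higher and 19 lower in PC14CDDP, and 93 and 41 in A549. The share of 1 Mb bins above 0 in PC14CDDP, 86.7%, was 80% with bins of 3 Mb and 73.3% with 0.5 Mb.

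After pre-miR-197, higher and lower calls were 3 and 6 with normexp, 4 and 5 on all 12 arrays, 3 and 6 with trend and robust moderation, and 17 and 21 by the methods' t-test unadjusted. Leaving out a line left 0 of each (median -0.02 to 0), and so did dropping the line that pairs the arrays. After LNA-miR-197, higher calls were 16 with normexp and on all 12 arrays, 11 with median scaling, 12 with every probe, 14 with trend and robust moderation, and lower calls were 5 with quantile scaling and with the mean of probes. Without a filter there were 1 and 2, with AllStar-NC as the control 27 and 15, and by the t-test 18 and 16 unadjusted. There were 0 and 0 after Benjamini-Hochberg adjustment of the t-test, with only the arrays compared, without the line that pairs them, with the slide as block and with any line left out (median -0.01 to 0.05). Its median of 0.02 was 0.01 with normexp, quantile scaling, the mean of probes or the left-out genes, -0.01 without a filter and 0.02 on all 12 arrays. The cause was not tested for any of these.

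Single genes that turned sign were NOTCH2NLA (0.25) and PYGO2 (0.08) in A549 with the mean of probes, and LOC100129268 (0.20) with AllStar-NC as the control. CTSS in PC14CDDP lost its call under 9 alternatives. TXNIP in A549 had an adjusted p of 0.243 with normexp, and PEAR1 there 0.0549 with quantile scaling and 0.0589 without the pre-miR-197 arrays. Against the median of all genes, 0.10 in PC14CDDP with median scaling, the region stood at 0.39. Signal over background kept 96 genes of the region from being tested.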
